A study of Mus musculus with 18 samples.

Results

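A pair of sorted populations of normal mouse mammary epithelial cells, the CD29H CD24P cells and the CD29P CD24H cells, was compared on 4 of the 18 arrays of the series. The arrays were chosen by their titles, with 2 arrays of each population, from preparations numbered 1 and 2. CD29, an integrin beta chain, and CD24, a small glycosylated protein, are surface antigens by which the cells were sorted with antibodies. In the sample names H stands for high and P for positive, so the first gate holds cells high in CD29 and positive for CD24, and the second holds cells positive for CD29 and high in CD24. The other arrays held 12 samples of sorted mammary tumor cells, 1 CD24 low sample of normal preparation 2 and 1 reference RNA. Strain, age, genotype and the number of animals behind a normal preparation are not given in the sources used here, so a p-value here speaks of the spread among these arrays only, which may be technical.

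The mammary duct is a bilayer. An outer basal layer of myoepithelial cells rests on the basement membrane, contracts under oxytocin and holds cells that can regrow a gland on transplantation. An inner luminal layer lines the duct and contains hormone-sensing cells, which carry the receptors for estrogen and progesterone, and progenitor and alveolar cells, which go on to make milk.

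The label of the comparison held on its own markers. Krt5, the type II keratin of basal cells (chr15:101707069-101712905, GRCm38.p6), gave a signal of 13691 and 13888 on the CD29H CD24P arrays, against 54.9 and 73.7 on the CD29P CD24H arrays. The difference was 7.17 ± 0.25 (SE, n = 2 arrays per population) on the log2(signal + 32) scale, and the CD24 low array read 25.4. Krt8, the luminal keratin (chr15:101996711-102004342), gave 20852 and 18828 in CD29H CD24P cells, against 44892 and 45862 in CD29P CD24H cells. Krt8 was therefore bright on all 4 arrays, its populations did not overlap, and the difference was −1.19 ± 0.16. On the CD24 low array the same probe set read 827. All 15 genes of the basal marker list were higher in CD29H CD24P cells, with a median difference of 6.45, and 14 of 15 luminal markers were lower, with a median of −3.70. The luminal marker that did not pass was Gata3, with a difference of 0.10. All 7 hormone-sensing genes tested were lower in CD29H CD24P cells. Of 10 luminal progenitor and alveolar genes tested, 7 were lower and 3 did not pass. Those 3 were Lcn2 (−0.12), Mfge8 (0.41) and Wap (0.17), and Csn2 was left out for low signal. Below, the CD29H CD24P cells are called basal and the CD29P CD24H cells luminal.

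The sort markers themselves were less sharply divided. Cd24a read 18046 and 15112 in basal cells and 34178 and 40168 in luminal cells, a difference of −1.16 ± 0.18 (limma, adjusted p = 0.000896). Itgb1, which encodes CD29, read 1376 and 1930 in basal cells and 1204 and 702 in luminal cells. Its difference of 0.80 ± 0.32 did not pass (adjusted p = 0.0851), although both basal arrays lay above both luminal arrays. The sort measured protein on the surface, and the arrays measured RNA.

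Across the 10916 genes tested, 3229 passed an adjusted p of 0.05 in limma, which is 29.6% of them. Of these, 1581 (14.5%) were higher in basal cells and 1648 (15.1%) were lower. The median difference over all genes tested was −0.02, and the median size was 0.495. In each of the 3229 genes both arrays of one population lay above both arrays of the other, as they did in 65.6% of all genes tested. The differences over 5 on the log2 scale were 62 in favour of basal cells and 20 in favour of luminal cells. Across genes, which are not independent, replicate arrays correlated at 0.982 in basal cells and 0.960 in luminal cells, and arrays of different populations at 0.772 to 0.802.

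**Figure D1:**
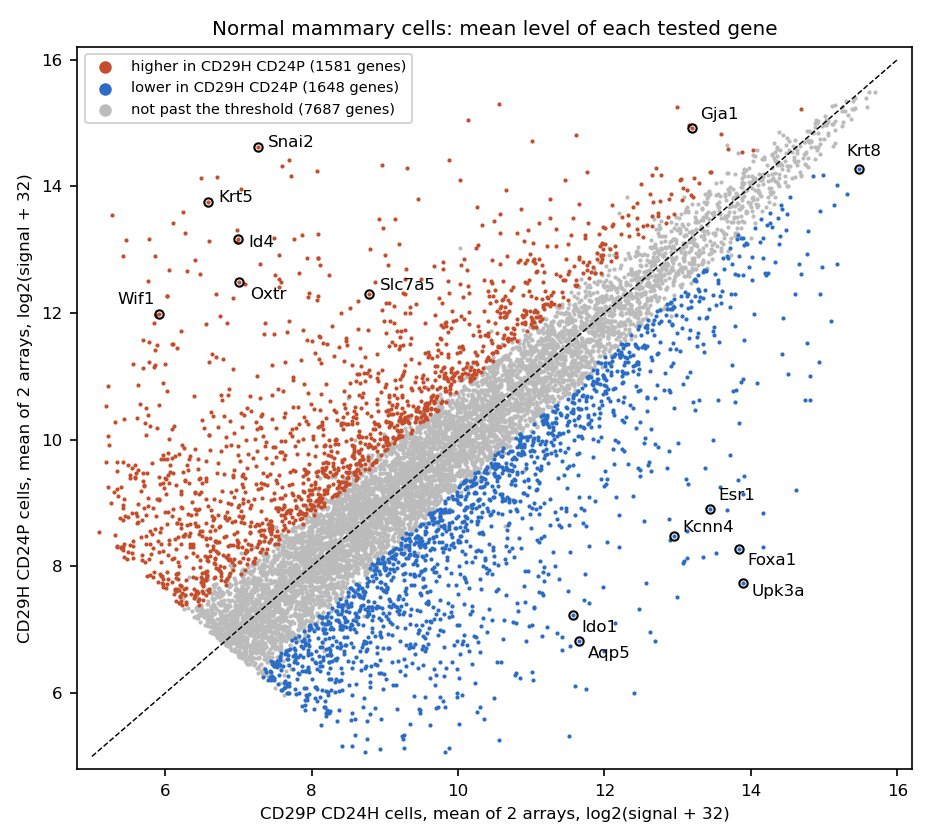
Mean level of each of the 10916 genes tested, with CD29H CD24P cells on the vertical axis and CD29P CD24H cells on the horizontal axis, both as the mean of 2 arrays in log2(signal + 32). Red points are the 1581 genes higher in CD29H CD24P cells, blue points the 1648 lower and grey points the others. Krt5, Snai2 and Id4 sit far above the diagonal, Foxa1, Esr1 and Upk3a far below it, and Krt8 just below it at the bright end.

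Other cells that the gates could hold were checked by their markers. The CD24 low array was rich in fibroblast RNA: the fibroblast list summed to 12379 and 11116 in basal cells, 9335 and 12655 in luminal cells, and 255993 in CD24 low cells. Of its 8 genes tested, Fbln1 passed, with 3.56 in favour of basal cells. No endothelial marker exceeded 120.2 on any of the 4 arrays. Of 3 pericyte genes tested, Notch3 was lower in basal cells (−3.24), and Rgs5 and Cspg4 did not pass. The 4 left out for low signal included Pdgfrb, with 179 and 201 in basal cells and 1.36 and 31.8 in luminal cells. Of 2 Schwann cell genes tested, Mbp was lower in basal cells (−2.16) and Sox10 did not pass. The 1 erythroid gene tested did not pass. No adipocyte or skeletal muscle marker was bright enough to be tested. The lymphocyte and pan-leukocyte list summed to 2336 and 1651 in basal cells and 8418 and 14053 in luminal cells, most of it from Jchain in luminal cells. Of its 5 genes tested, 3 were lower in basal cells, and Coro1a and Igha did not pass. Another 6, among them Cd3e, Cd79a and Ms4a1, were left out for low signal. Ptprc, the leukocyte phosphatase CD45, read 227 and 138 in basal cells and 728 and 573 in luminal cells, and Jchain, the joining chain of secreted antibodies, 785 and 657 in basal cells and 5537 and 9828 in luminal cells. Of 7 macrophage and myeloid genes tested, C1qb (1.88) and Csf1r (0.90) were higher in basal cells and S100a8 was lower (−2.29). Csf1r did not pass without either basal array or without the luminal array of preparation 1. Among the genes higher in basal cells, 432 of 1581 had a CD24 low signal above both basal arrays, and among those lower, 203 of 1648 had one above both luminal arrays. The part of these cells in the results was not tested, and fewer cells of a type and less RNA per cell cannot be told apart here. The actin 3′/5′ signal ratio, a measure of RNA integrity and of amplification, was 7.09 and 3.08 on the basal arrays and 24.7 and 6.33 on the luminal arrays. Its part in the results was not tested either.

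The largest differences named contractile proteins, matrix and keratins on the basal side. Myl9, the regulatory light chain of smooth muscle myosin, led with 11426 and 12574 in basal cells, against 6.97 and 6.13 in luminal cells, a difference of 8.28 ± 0.25. Cnn1, which binds actin and calmodulin, differed by 7.69, Myh11, the smooth muscle myosin heavy chain, by 7.47, and Tagln, an actin-bundling protein, by 6.73. Of matrix genes, Sparc (7.44), Vcan, the proteoglycan versican (7.39), Col17a1, a hemidesmosomal collagen (7.03), and Col4a2, a basement membrane collagen (6.93), were among the 15 largest. Sparc read 9.40 and 231 on the luminal arrays, which were far apart, and 34870 in CD24 low cells. A less familiar basal gene was Tenm2, a teneurin adhesion protein, with 20657 and 15694 in basal cells and 83.5 and 38.2 in luminal cells. Serpinb11, a member of the serpin family, read 12654 and 12155 in basal cells and 69.8 and 24.01 in luminal cells, and Moxd1, a monooxygenase related to dopamine beta-hydroxylase, 11513 and 10305 in basal cells and 99.7 and 4.30 in luminal cells.

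On the luminal side the leading genes were of several kinds. Upk3a, a uroplakin known from the bladder surface (chr15:85017141-85022560), read 193 and 170 in basal cells and 16610 and 13927 in luminal cells, a difference of −6.16 ± 0.25. Hp, the haemoglobin-binding plasma protein haptoglobin (−5.87), and Fgb, the fibrinogen beta chain (−5.69), are both best known as liver products. Fgb read 50.3 and 22.1 in basal cells and 3065 and 3788 in luminal cells. The largest of all was Smim38, a small membrane protein, with −6.40, followed by Tesc, the calcium-binding protein tescalcin, with −6.20. Cxcl15, a chemokine (−5.67), Itih2, an inter-alpha-trypsin inhibitor chain that binds hyaluronan (−5.33), Tnfaip2 (−5.32) and Pkp2, a desmosomal plakophilin (−5.32), were also in the 15 largest. Tnfaip2 was not restricted to the luminal gate, since the CD24 low array read 15975.

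The promoters of the leading genes were searched for 1 motif chosen for each direction and for the motif of the other direction. Those of Myl9, the largest basal gene, and Foxa1, a luminal factor among the largest, are printed because they hold the motif of their direction. The CArG box, which binds serum response factor in smooth muscle genes, was searched only as CCWWWWWWGG, where W is A or T. The promoters of 1 chromosome were not searched. This exact form was found on either strand in 488 of 27025 genes with a RefSeq promoter searched, or 1.81%. Of the genes tested on the arrays, 142 of 8837 held it, or 1.61%. Of the 15 largest genes higher in basal cells, 11 had a promoter searched and 1, Myl9, held the exact form. Of 4 contractile marker genes with a promoter searched, Myl9 alone held it. The windows of Acta2, Cnn1 and Mylk held no exact match. Forms with a mismatch were not searched, so these windows may still hold a working box. The Acta2 window holds ccctatatgg, 1 base from the pattern. TGTTTAC, a letter sequence of the kind that forkhead proteins such as Foxa1 bind, was found on either strand in 1095 of 27025, or 4.05%. Of the genes tested on the arrays, 275 of 8837 held it, or 3.11%. Of the 15 largest genes lower in basal cells, 12 had a promoter searched and 1, Foxa1 itself, held TGTTTAC. The CArG box was in 0 of these 12, and TGTTTAC was in 0 of the 11 basal promoters. The windows run from 250 bases before to 50 bases after the start site of the table, in GRCm38.p6, and the capitals mark the motif. The Myl9 window is chr2:156775214-156775513, plus strand, and its box begins at −161 from the start site. The Foxa1 window is chr12:57546062-57546361, minus strand, inside the annotated gene (chr12:57540628-57548029), and its motif, read on the other strand, begins at −141. Neither window holds the other motif, and a match is no proof of binding.
Myl9: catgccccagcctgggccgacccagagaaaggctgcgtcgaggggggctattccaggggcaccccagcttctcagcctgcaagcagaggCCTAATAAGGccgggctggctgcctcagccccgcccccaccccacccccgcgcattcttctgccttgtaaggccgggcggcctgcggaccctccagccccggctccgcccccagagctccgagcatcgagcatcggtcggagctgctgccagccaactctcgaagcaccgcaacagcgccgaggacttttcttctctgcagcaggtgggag
Foxa1: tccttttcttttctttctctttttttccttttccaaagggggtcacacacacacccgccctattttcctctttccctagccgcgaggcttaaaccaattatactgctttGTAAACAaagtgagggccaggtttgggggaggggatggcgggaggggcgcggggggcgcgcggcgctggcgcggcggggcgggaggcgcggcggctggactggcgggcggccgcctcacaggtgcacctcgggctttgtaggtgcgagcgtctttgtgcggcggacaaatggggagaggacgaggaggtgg

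Transporters and channels were examined by family. Of 267 genes tested, 62 were higher in basal cells and 70 were lower, together 49.4%, against 29.6% of all genes tested, with a median difference of −0.10. A gene could pass the filter on low signals through one population alone, so these shares describe the families and support nothing further. Amino acid carriers were divided between the layers: of 27 tested, 11 were higher in basal cells, 7 were lower and 9 did not pass. The share called was 66.7%. Slc7a5, the large neutral amino acid exchanger LAT1 (chr8:121881146-121907686), read 5189 and 4820 in basal cells, against 382 and 442 in luminal cells, a difference of 3.51 ± 0.25 (adjusted p = 5.48e-06). Its basal values differed from each other far less than from the luminal ones. Slc6a15, a sodium-driven carrier of branched-chain amino acids and proline, read 813 and 788 in basal cells and 41.1 and 26.1 in luminal cells. Slc38a5, a glutamine and histidine carrier, was near the floor of the scale in luminal cells, with 301 and 382 in basal cells and 1.36 and 2.78 in luminal cells. Slc7a8, a second large neutral exchanger (2.84), and Slc6a6, the taurine carrier (2.72), were also higher. Luminal cells had more of Slc7a2, a cationic amino acid carrier, with 447 and 461 in basal cells and 3741 and 2803 in luminal cells (−2.75 ± 0.26). Slc1a1, a glutamate carrier (−2.12), and Slc1a4, a neutral amino acid exchanger (−1.79), were lower in basal cells too.

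Of 21 carriers of sugars, polyols and monocarboxylates tested, 7 were higher in basal cells, 4 were lower and 10 did not pass. The share called was 52.4%, against 29.6% of all genes tested. Slc16a1, the lactate and pyruvate carrier MCT1, read 3851 and 4607 in basal cells, against 505 and 427 in luminal cells, a difference of 3.10 ± 0.25. Slc2a13, a proton-coupled inositol carrier, read 581 and 796 in basal cells and 22.7 and 17.2 in luminal cells. The 4 members lower in basal cells were Slc45a3, a putative sugar carrier (−2.45), and 3 members of the sodium-coupled SLC5 family. Slc5a3 of the same family, which carries inositol and was named after its value was seen, was higher, with 9765 and 9552 in basal cells and 4168 and 5425 in luminal cells (1.02 ± 0.22). Slc5a1, the sodium-glucose carrier SGLT1, read 27.6 and 16.9 in basal cells and 487 and 603 in luminal cells (−3.41 ± 0.30). Slc5a5, the iodide carrier that loads iodide into milk, read 71.9 and 84.6 in basal cells and 480 and 1137 in luminal cells, and Slc5a8, a carrier of short monocarboxylates, 116 and 89.9 in basal cells and 1075 and 941 in luminal cells. Slc2a1, the widespread glucose carrier GLUT1, named after its value was seen, did not pass (−0.37).

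Of 25 carriers of nucleosides, vitamins and organic ions tested, 10 were lower in basal cells, 3 were higher and 12 did not pass, with a median difference of −0.47. Slc28a3, which pulls nucleosides in with sodium (chr13:58553307-58610877), read 32.1 and 26.97 in basal cells and 912 and 1053 in luminal cells, a difference of −4.04 ± 0.27. Slc44a4, which carries thiamine pyrophosphate, read 8.08 and 37.96 in basal cells and 1081 and 429 in luminal cells. Slc46a3 (−3.27), a lysosomal carrier, and the organic anion carriers Slco1a6 (−3.26) and Slco1a5 (−2.91) were lower as well. Among ion and bicarbonate carriers 7 of 23 were higher and 5 were lower, together 52.2%. Slc12a2, the sodium-potassium-chloride carrier NKCC1, was bright in both layers, with 7275 and 6322 in basal cells and 34519 and 29589 in luminal cells (−2.23 ± 0.19). Its relative Slc12a4, the potassium-chloride carrier KCC1, went the other way, with 564 and 523 in basal cells and 42.9 and 63.6 in luminal cells (2.77 ± 0.28). Slc13a3, a dicarboxylate carrier, was lower in basal cells (−2.79). Of 23 carriers of zinc, iron, copper and other metals, 15 did not pass, 4 were higher and 4 were lower. The share called was 34.8%, and the largest difference was that of the zinc carrier Slc39a10, at 1.94. Of 36 mitochondrial carriers 4 were higher and 7 were lower, led by the aspartate-glutamate carrier Slc25a13 (2.02) and the ATP-magnesium and phosphate carrier Slc25a24 (−1.74). Their share called, 30.6%, was near the 29.6% of all genes tested.

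Pumps and ABC transporters were higher in either layer. Of 22 ABC transporters tested, 7 were higher in basal cells and 6 were lower, together 59.1%, against 29.6% of all genes tested. Abcb1b, a P-glycoprotein that exports drugs, read 688 and 440 in basal cells and 27.2 and 11.8 in luminal cells (3.52 ± 0.33). Abcc8, the sulfonylurea receptor subunit of potassium channels, read 20.1 and 25.4 in basal cells and 755 and 1000 in luminal cells (−4.04 ± 0.29), and Abca3, a phospholipid carrier known from lung surfactant, 358 and 231 in basal cells and 3526 and 3493 in luminal cells (−3.47 ± 0.28). The beta subunits of the sodium pump ran in opposite directions. Atp1b3 read 5846 and 7164 in basal cells and 2026 and 2223 in luminal cells, and Atp1b1 1167 and 706 in basal cells and 7260 and 6281 in luminal cells, differences of 1.59 and −2.85. Fabp5, a cytosolic fatty acid binding protein, was bright on all 4 arrays, with 35137 and 28911 in basal cells and 7745 and 10663 in luminal cells.

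Ion channels gave some of the widest gaps. Scn7a, an atypical sodium channel that senses extracellular sodium, read 3279 and 3409 in basal cells, against 39.8 and 44.8 in luminal cells, a difference of 5.51 ± 0.25. It was brighter still in CD24 low cells, at 7196. Kcnmb1, the smooth muscle beta subunit of the calcium-activated BK channel, read 450 and 446 in basal cells and 37.7 and 35.5 in luminal cells. Its pore-forming partner Kcnma1 differed by 1.13 in the same direction, a call that was lost when no gene was left out for low signal, and the voltage-gated potassium channel Kcnq5 by 3.87. Another calcium-activated potassium channel, Kcnn4, was lower in basal cells, with 479 and 217 in basal cells and 7755 and 7974 in luminal cells (−4.47 ± 0.34). Trpc6, a calcium-permeable cation channel, was close to the floor of the scale in basal cells, with 4.31 and 1.69, against 1176 and 699 in luminal cells. Piezo2, a mechanically gated channel (−3.78), and Scnn1a, the alpha subunit of the epithelial sodium channel (−2.51), were lower in basal cells, and Trpm3, a cation channel known from sensory neurons, was higher (3.37). Of 35 channels outside the potassium family, 7 were higher and 14 were lower.

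Water channels and gap junction proteins included members higher in each layer. Of 9 aquaporins, connexins and pannexins tested, 4 were higher in basal cells, 2 were lower and 3 did not pass. The share called was 66.7%, against 29.6% of all genes tested. Aqp5, the water channel of secretory glands (chr15:99591028-99594829), read 89.1 and 73.6 in basal cells and 3531 and 2892 in luminal cells (−4.83 ± 0.26). Aqp9, which also carries glycerol, read 821 and 606 in basal cells and 38.3 and 2.61 in luminal cells (3.90 ± 0.38). Gja1, a widespread connexin, was bright in both, with 32813 and 29422 in basal cells and 9285 and 9366 in luminal cells, and Gjb2, another connexin, was lower in basal cells (−1.77). Gjc1, a connexin known from heart and vessels, differed by 3.11.

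**Figure D2:**
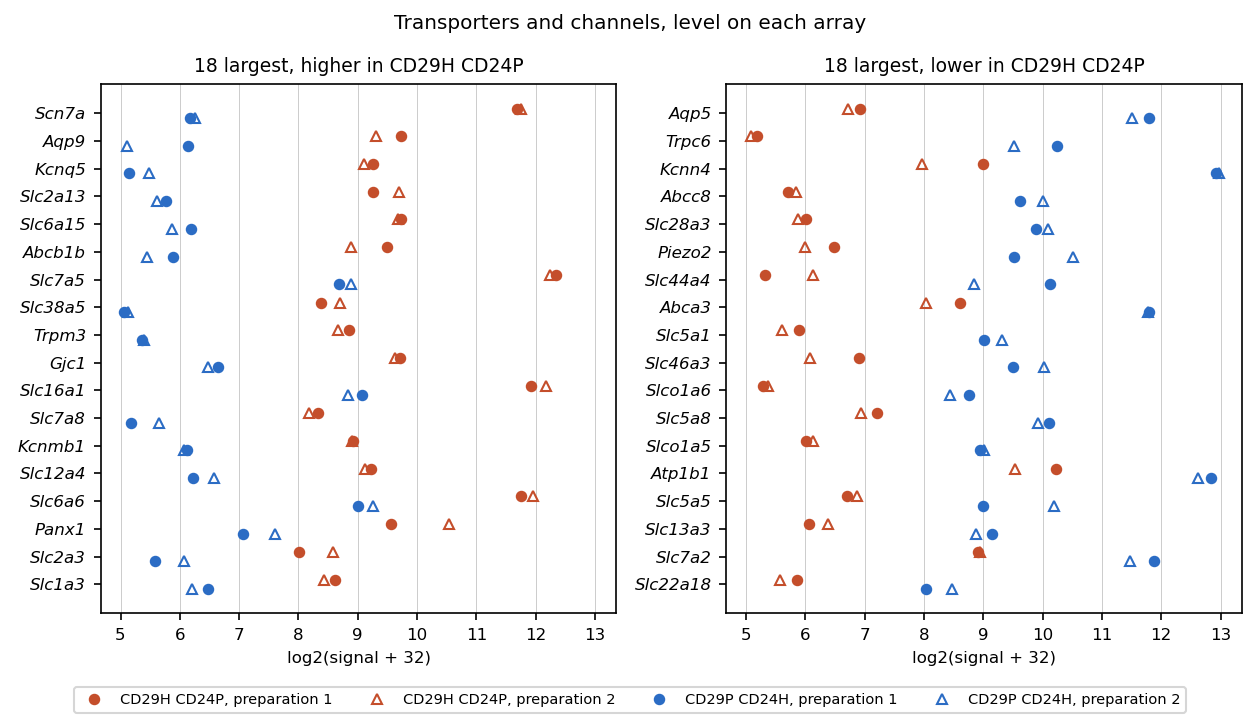
Levels of the 18 transporters and channels with the largest differences in each direction, in log2(signal + 32) on the horizontal axis, with 1 point per array: orange for CD29H CD24P cells, blue for CD29P CD24H cells, filled circles for preparation 1 and open triangles for preparation 2. Left panel, higher in CD29H CD24P cells, from Scn7a (5.51) down; right panel, lower in them, from Aqp5 (−4.83) down. In no row do the colours overlap, which holds for every gene called.

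Of 269 receptors, guidance molecules and growth factors tested, 94 were higher in basal cells and 43 were lower, together 50.9%, with a median difference of 0.39. Of all genes tested, 14.5% were higher and 15.1% were lower, together 29.6%. Among receptor tyrosine kinases 9 of 24 were higher and 5 were lower, together 58.3%. Axl, a receptor for Gas6, read 531 and 936 in basal cells and 46.5 and 48.6 in luminal cells (3.21 ± 0.32), and Ntrk3, the neurotrophin-3 receptor, 596 and 651 in basal cells and 55.8 and 69.3 in luminal cells. Igf1r, the insulin-like growth factor receptor, was higher by 1.91 and Egfr, the epidermal growth factor receptor, by 1.83. Its relative Erbb3, a neuregulin receptor, went the other way, with 851 and 610 in basal cells and 11594 and 9588 in luminal cells (−3.81 ± 0.26). Kit, the stem cell factor receptor of luminal progenitors, read 38.3 and 66.7 in basal cells and 652 and 941 in luminal cells. Erbb2, named after its value was seen, did not pass (−0.67).

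Ligands of these receptors were found higher in the layer of the receptor and in the other layer. Nrg1, a ligand of Erbb3, read 1636 and 1467 in basal cells and 88.9 and 67.1 in luminal cells (3.85 ± 0.26). Ereg, an Egfr ligand and higher where Egfr was higher, read 8116 and 6813 in basal cells and 263 and 170 in luminal cells, and Btc, another, was lower in basal cells (−3.11). Over all secreted growth factors and antagonists, 26 of 54 tested were higher in basal cells and 11 were lower. The share called was 68.5%, against 29.6% of all genes tested, and the median difference was 0.71. Fst, which binds activin, read 21398 and 18814 in basal cells and 638 and 568 in luminal cells (4.99 ± 0.23). Inhbb, a subunit of activin itself, read 170 and 155 in basal cells and 3023 and 2698 in luminal cells (−3.89 ± 0.25). Lif, leukemia inhibitory factor (−2.55), and Fgf13, an intracellular relative of the fibroblast growth factors (−4.10), were lower in basal cells.

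Of the secreted Wnt proteins and the factors that act on them, some were higher and some lower in basal cells. Wif1, which binds and blocks Wnt proteins (chr10:121034004-121100642), read 4026 and 3994 in basal cells, against 24.4 and 32.7 in luminal cells, a difference of 6.06 ± 0.25. Wnt10a was higher in basal cells, with 1091 and 923, against 8.48 and 76.6 in luminal cells. Wnt4, which progesterone induces in luminal cells, read 115 and 135 in basal cells and 2072 and 1532 in luminal cells (−3.53 ± 0.27), and Wnt7b was lower as well (−2.58). Lgr5 and Lgr6, receptors of the R-spondins, which strengthen Wnt signals, were higher in basal cells: Lgr5 read 583 and 724 in basal cells and 26.1 and 30.2 in luminal cells, and Lgr6 3463 and 3045 in basal cells and 468 and 508 in luminal cells. Dkk3, a member of the Dickkopf family, differed by 4.62.

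Semaphorins, netrins, slits and their receptors, which steer axons and epithelial branches, were higher in basal cells for 16 of 34 tested and lower for 3. Together 55.9% were called, against 29.6% of all genes tested. Sema3b read 2833 and 2920 in basal cells and 54.3 and 22.5 in luminal cells (5.41 ± 0.29), and Sema3c 7615 and 7219 in basal cells and 194 and 298 in luminal cells (4.77 ± 0.27). Sema3c was also bright in CD24 low cells, at 8870. Sema5a (4.61), Sema6d (3.84) and Slit2 (3.63) followed. Sema7a (−2.57) and Ntn1, a netrin (−2.88), were lower in basal cells. Of 13 Eph receptors and ephrins, 5 were higher and none was lower, with 8 that did not pass. Their share called was 38.5%. Ephb1 read 837 and 866 in basal cells and 40.3 and 27.996 in luminal cells, and Epha4 1532 and 1649 in basal cells and 112 and 140 in luminal cells.

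G protein-coupled receptors were led by Oxtr, the oxytocin receptor through which myoepithelial cells contract at let-down (chr6:112473683-112491035). It read 6120 and 5312 in basal cells and 67.4 and 136 in luminal cells (5.47 ± 0.30). Of 65 tested, 21 were higher in basal cells and 10 were lower, together 47.7%, against 29.6% of all genes tested. Another 150 on the array were left out for low signal. F2r, the thrombin receptor, read 17764 and 13944 in basal cells and 1520 and 1653 in luminal cells, and Ackr3, a scavenger of the chemokine Cxcl12, 2709 and 3295 in basal cells and 294 and 355 in luminal cells. Both were brighter in CD24 low cells than in basal cells, at 29245 and 14113. Adhesion receptors Adgrl3 (3.38) and Adgrg2 (3.14) were higher. Ptger3, a prostaglandin E2 receptor, read 29.4 and 15.8 in basal cells and 907 and 705 in luminal cells (−3.94 ± 0.30), and S1pr2, a sphingosine-1-phosphate receptor, was lower too (−2.52).

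Receptors of the TGF-beta family and the GDNF co-receptors were higher in basal cells for 7 of 13 tested and lower for 1. Together 61.5% were called, against 29.6% of all genes tested. Gfra1, a GDNF co-receptor, read 1717 and 2050 in basal cells and 30.9 and 30.7 in luminal cells (4.93 ± 0.26). Tgfbr3, betaglycan, read 19467 and 15818 in basal cells and 670 and 1530 in luminal cells (4.07 ± 0.35), while the signalling receptors Tgfbr1 (0.70) and Tgfbr2 (−0.17), named after their values were seen, did not pass. Of 42 cytokine and TNF receptors, 7 were higher and 7 were lower, together 33.3%, near the share of all genes tested. Il18r1, an interleukin receptor, read 105 and 71.0 in basal cells and 1185 and 1169 in luminal cells, and Il1r1, another, 105 and 75.6 in basal cells and 709 and 934 in luminal cells. Il1r1 was brightest in CD24 low cells, at 6877.

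The nuclear receptors with the largest differences were the steroid receptors of hormone-sensing luminal cells. Of 24 tested, 3 were higher in basal cells, 6 were lower and 15 did not pass. The share called was 37.5%, against 29.6% of all genes tested. Esr1, estrogen receptor alpha (chr10:4611989-5005633), read 518 and 390 in basal cells and 13173 and 9273 in luminal cells (−4.52 ± 0.28). Pgr, the progesterone receptor, read 1524 and 934 in basal cells and 16392 and 13027 in luminal cells (−3.58 ± 0.28). Esrrg, an orphan estrogen-related receptor, read 30.2 and 46.6 in basal cells and 562 and 488 in luminal cells. Nr4a3, an immediate-early orphan receptor, was higher in basal cells (1.92).

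**Figure D3:**
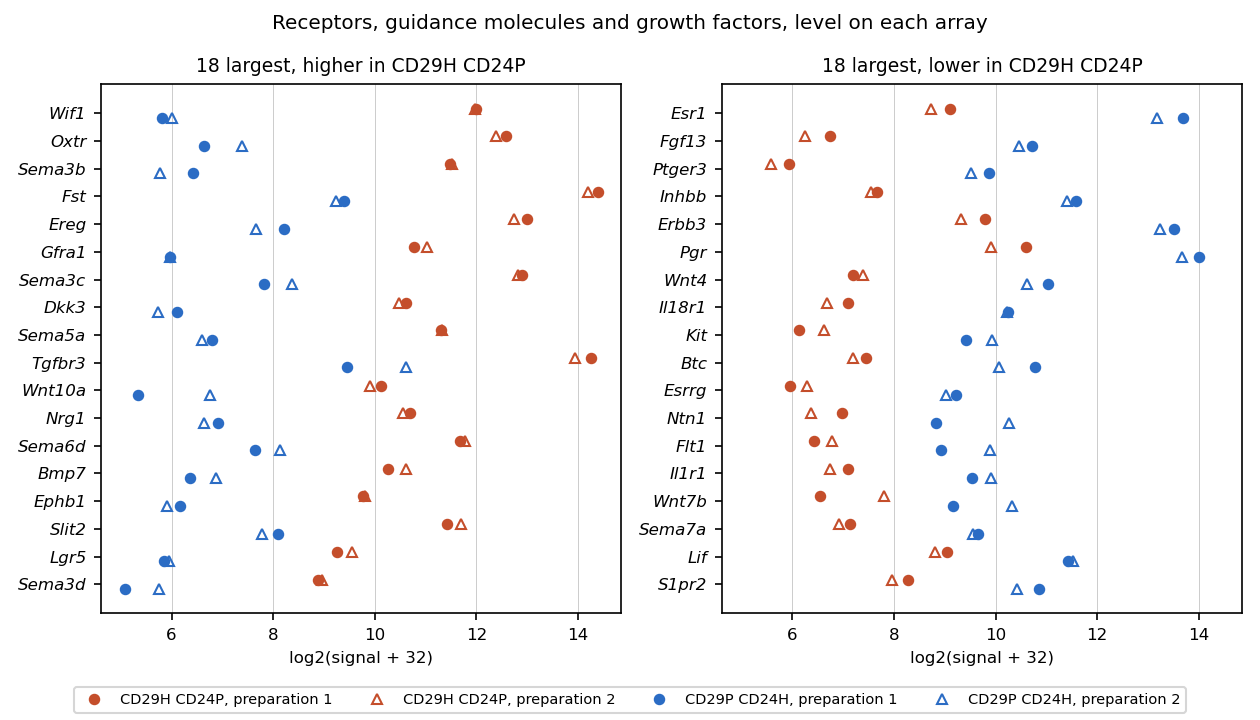
Levels of the 18 receptors, guidance molecules and growth factors with the largest differences in each direction, in log2(signal + 32) on the horizontal axis, with 1 point per array: orange for CD29H CD24P cells, blue for CD29P CD24H cells, filled circles for preparation 1 and open triangles for preparation 2. Left panel, higher in CD29H CD24P cells, from Wif1 (6.06) down; right panel, lower in them, from Esr1 (−4.52) down. Wnt10a has the widest gap between luminal arrays among the genes of the left panel.

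Of 235 transcription factors tested, 54 were higher in basal cells and 43 were lower, together 41.3%, against 29.6% of all genes tested, with a median difference of −0.001. On the basal side Snai2, a zinc-finger repressor of E-cadherin (chr16:14705852-14709395), read 28758 and 21845 in basal cells and 166 and 87.4 in luminal cells (7.35 ± 0.30). Id4, an inhibitor of helix-loop-helix factors, read 10665 and 7948 in basal cells and 93.9 and 96.1 in luminal cells (6.19 ± 0.26). Trp63, the p53 relative that maintains basal epithelia, read 10416 and 8743 in basal cells and 164 and 248 in luminal cells (5.35 ± 0.27). These 3 factors were bright in both basal arrays and dim in both luminal arrays.

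Factors less often named for basal mammary cells were as clearly divided. Sox11, a SOX factor best known from neural development, read 3090 and 2916 in basal cells and 20.7 and 19.4 in luminal cells (5.87 ± 0.25). Bcl11b, a zinc-finger regulator of T cells and of stem cells in skin and breast, read 2121 and 2347 in basal cells and 9.64 and 47.8 in luminal cells. Irx4, an Iroquois homeobox factor known from heart ventricles, read 1195 and 1217 in basal cells and 10.1 and 5.89 in luminal cells (4.95 ± 0.27). Its family member Irx3 went the other way, with 2738 and 2635 in basal cells and 9321 and 7494 in luminal cells (−1.63 ± 0.23). Mycn differed by 3.87 and Mycl by −2.39, so that different MYC relatives were higher in each layer. Mycn read 726 and 567 in basal cells and 8.003 and 20.9 in luminal cells. Maf, a basic leucine zipper factor, read 4609 and 3961 in basal cells and 357 and 320 in luminal cells (3.54 ± 0.25). Prrx1, a homeobox factor of mesenchyme, was higher in basal cells (3.08), but the CD24 low array read 6251, against 537 and 381 in basal cells.

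The list of SRF, MRTF, TEAD, YAP, SMAD, NFI, GLI and TCF factors had 29 genes tested. Of these, 13 were higher in basal cells and 2 were lower, together 51.7%, against 29.6% of all genes tested. The median difference was 0.67. Vgll3, a TEAD cofactor, read 2245 and 1315 in basal cells and 31.01 and 35.3 in luminal cells (4.75 ± 0.31). Tead1 read 5032 and 5083 in basal cells and 1062 and 1148 in luminal cells (2.16 ± 0.23), and Tead2 was lower (−1.99). Mef2c, a myocyte enhancer factor, differed by 2.92 and Tcf7l1, a repressor of Wnt targets, by 2.20. Srf itself, named after its value was seen, did not pass (0.04).

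The largest luminal factors came from the forkhead and ETS families. Foxa1, the pioneer factor of estrogen receptor binding, read 418 and 183 in basal cells and 15209 and 14109 in luminal cells (−5.56 ± 0.34). Foxq1 read 127 and 86.6 in basal cells and 2056 and 1467 in luminal cells. Of 16 forkhead factors, 2 were higher in basal cells, 3 were lower and 11 did not pass. Their share called, 31.2%, was near the 29.6% of all genes tested. Among 15 ETS factors 2 were higher and 4 were lower. Ehf, an epithelial ETS factor, read 9.81 and 3.36 in basal cells and 1672 and 1295 in luminal cells (−5.29 ± 0.29). Elf5, which drives alveolar fate, read 69.9 and 81.2 in basal cells and 3183 and 2664 in luminal cells (−4.78 ± 0.26). The 2 ETS factors higher in basal cells were Etv5, downstream of fibroblast growth factor signals, with 1165 and 1099 in basal cells and 173 and 131 in luminal cells (2.67 ± 0.26), and Elk3 (1.61). Msx2, a homeobox factor, and Tfcp2l1, a Grainyhead relative, were lower in basal cells, with differences of −3.03 and −2.48. Of 19 KLF, SP and EGR factors 3 were higher and 5 were lower, together 42.1%. Klf2 (−2.24), Klf3 (−2.09) and Klf6 (−1.60) were among the 5.

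Of the 12 dissociation genes tested, which single-cell preparation can induce, 1 was higher in basal cells, 2 were lower and 9 did not pass. The share called, 25.0%, was near the 29.6% of all genes tested. Jun, 1 of these 12 and a member of the AP-1 list, read 4696 and 3233 in basal cells and 10536 and 11119 in luminal cells (−1.47 ± 0.24). Fos (−0.26) and Atf3 (−0.42) did not pass.

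**Figure D4:**
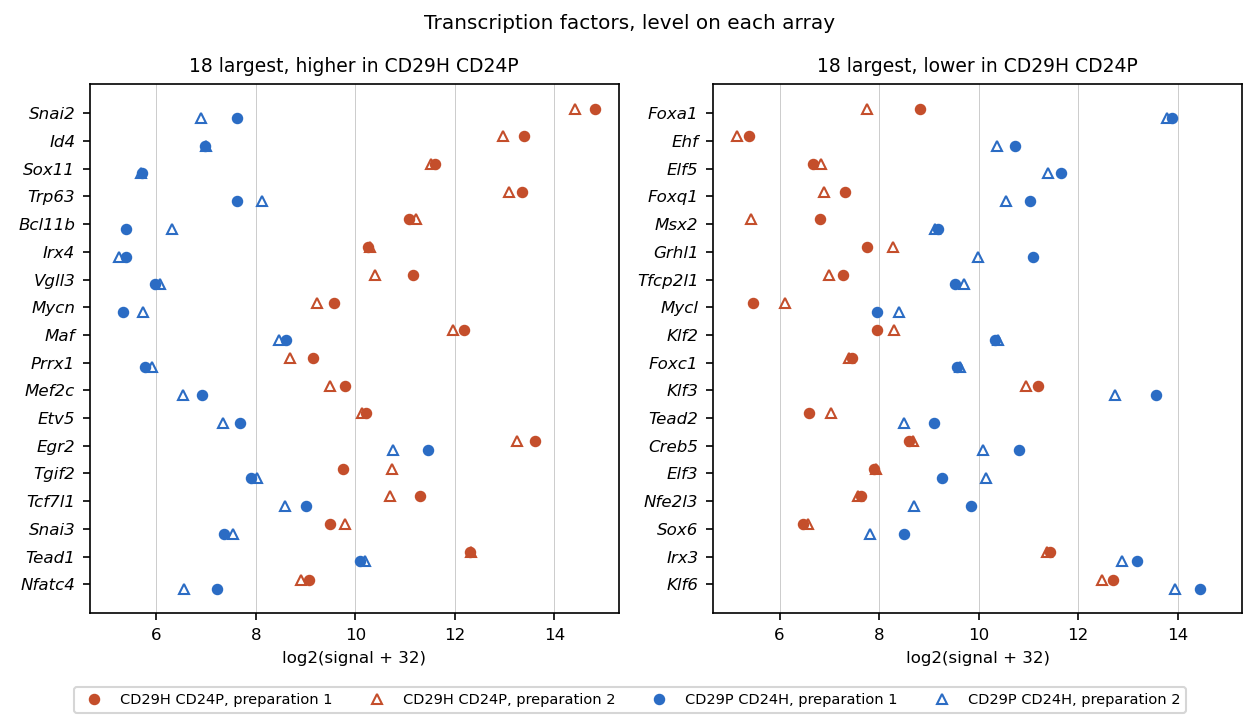
Levels of the 18 transcription factors with the largest differences in each direction, in log2(signal + 32) on the horizontal axis, with 1 point per array: orange for CD29H CD24P cells, blue for CD29P CD24H cells, filled circles for preparation 1 and open triangles for preparation 2. Left panel, higher in CD29H CD24P cells, from Snai2 (7.35) down; right panel, lower in them, from Foxa1 (−5.56) down. Rows are ordered by the difference, so the gap between the colours narrows from the first row of each panel to the last.

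Metabolic enzymes were the largest group, with 424 tested, of which 90 were higher in basal cells and 82 were lower, together 40.6%, against 29.6% of all genes tested. The median difference was −0.12. Of 21 genes of glycolysis and lactate transport, 7 were higher and 5 were lower, together 57.1%, and 9 did not pass. Aldoa (0.05), Pgk1 (0.05) and Tpi1 (−0.15), named after their values were seen, were among the 9. The paralogue Aldoc was lower in basal cells, with 449 and 584, against 3451 and 3584 in luminal cells (−2.70 ± 0.26). Pfkfb3 (−2.03) and Pfkfb2 (−1.73), which make the activator of phosphofructokinase, were lower, and Fbp1, the gluconeogenic fructose bisphosphatase, read 504 and 313 in basal cells and 2719 and 2443 in luminal cells.

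Of 33 genes of pyruvate dehydrogenase and the citric acid cycle, 5 were higher in basal cells, 4 were lower and 24 did not pass, so that the share called, 27.3%, was near the 29.6% of all genes. The largest difference was that of Pdk4, a kinase that switches pyruvate dehydrogenase off (chr6:5483351-5496278), with 5270 and 4502 in basal cells and 195 and 239 in luminal cells (4.31 ± 0.26). Pdk3, of the same family, differed by 1.63. Me3, a mitochondrial malic enzyme, read 244 and 335 in basal cells and 11.6 and 5.50 in luminal cells. Of 23 genes of the pentose phosphate, glycogen and fructose list, 3 were higher and 7 were lower, together 43.5%, with a median of −0.45. Pgd, of the oxidative pentose phosphate branch, read 7268 and 6262 in basal cells and 17545 and 14665 in luminal cells (−1.25 ± 0.21).

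Of 21 genes of fatty acid synthesis, 6 were higher in basal cells and 6 were lower, together 57.1%. The elongase Elovl4, of very long chains, read 630 and 616 in basal cells and 13.5 and 27.2 in luminal cells (3.66 ± 0.29), whereas the elongase Elovl7 read 736 and 750 in basal cells and 5483 and 6859 in luminal cells (−2.99 ± 0.25). Scd1, the desaturase that makes oleate, was lower (−1.90), as was Acss1, the mitochondrial acetyl-CoA synthetase (−3.09). Both sphingomyelin synthases were lower in basal cells: Sgms1 read 2406 and 2191 in basal cells and 17355 and 10678 in luminal cells, and Sgms2 1657 and 1439 in basal cells and 13632 and 10558 in luminal cells. Btn1a1, butyrophilin of the milk fat globule, read 192 and 98.2 in basal cells and 1168 and 2637 in luminal cells (−3.39 ± 0.40), and Cidea, a lipid droplet protein, 5.24 and 28.9 in basal cells and 293 and 390 in luminal cells. Of the genes of fatty acid oxidation 5 of 31 passed and of cholesterol synthesis and uptake 3 of 23, both below the 29.6% of all genes tested. Of 25 sphingolipid and ganglioside genes 2 were higher in basal cells, 4 were lower and 19 did not pass.

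Of 32 enzymes of amino acid, polyamine and creatine metabolism tested, 8 were higher in basal cells, 7 were lower and 17 did not pass. Their share called was 46.9%. Ido1, which breaks tryptophan down to kynurenine, read 187 and 70.5 in basal cells and 3001 and 3022 in luminal cells (−4.34 ± 0.35). Kynu, further along the same route, read 36.1 and 6.92 in basal cells and 324 and 224 in luminal cells. Glul, glutamine synthetase, was lower in basal cells, with 3300 and 1280 in basal cells and 23057 and 23239 in luminal cells (−3.47 ± 0.37). Arg1 (−3.13) and Arg2 (−2.07), the 2 arginases, and Cdo1, cysteine dioxygenase (−3.18), were lower as well. On the basal side Bcat1, the cytosolic branched-chain aminotransferase, read 624 and 574 in basal cells and 32.2 and 26.2 in luminal cells (3.37 ± 0.28), and Ckb, brain-type creatine kinase, 1222 and 1690 in basal cells and 158 and 211 in luminal cells. Of 16 genes of serine, glycine and one-carbon metabolism, 5 were higher, none was lower and 11 did not pass, led by Cth, cystathionine gamma-lyase (2.38). The share called, 31.2%, was near the 29.6% of all genes tested.

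Glutathione peroxidases included members higher in each layer. Gpx2 read 1113 and 974 in basal cells and 17.2 and 25.6 in luminal cells (4.33 ± 0.28), and Gpx7, of the endoplasmic reticulum, 758 and 778 in basal cells and 8.82 and 8.28 in luminal cells (4.30 ± 0.28). Gpx3, the secreted form, read 878 and 441 in basal cells and 12228 and 17223 in luminal cells (−4.47 ± 0.33). Gpx1 (−0.45) and Gpx4 (−0.28), named after their values were seen, did not pass. Aldehyde dehydrogenases that make retinoic acid were divided too. Aldh1a1 read 1436 and 1157 in basal cells and 127 and 126 in luminal cells (3.06 ± 0.26), while Aldh1a3, a mark of luminal progenitors (chr7:66390892-66427477), read 763 and 567 in basal cells and 16889 and 13979 in luminal cells (−4.48 ± 0.25). Aldh3a1 was called lower (−3.39 ± 0.84), but its luminal arrays read 1204 and 82.4, far apart, and the call was lost when no gene was left out for low signal. Pla2g7, which hydrolyses platelet-activating factor, differed by 3.87 and Cbr2, a carbonyl reductase, by 3.40.

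Heparan and chondroitin sulfate enzymes were higher in basal cells for 15 of 28 tested and lower for 3. The share called was 64.3%, against 29.6% of all genes tested, and the median difference was 0.86. Hs6st2, which adds sulfate to heparan (chrX:51386637-51681705), read 2901 and 2619 in basal cells and 24.02 and 59.3 in luminal cells (5.28 ± 0.30), and Chst11, which sulfates chondroitin, 3430 and 4056 in basal cells and 141 and 212 in luminal cells (4.19 ± 0.27). Has2, hyaluronan synthase, differed by 2.46. The 2 heparan 6-O-endosulfatases ran in opposite directions, Sulf1 with 556 and 517 in basal cells and 40.2 and 68.2 in luminal cells (2.74 ± 0.29), and Sulf2 with 2183 and 1324 in basal cells and 6838 and 8433 in luminal cells (−2.14 ± 0.28). Enzymes of lactose, O-glycans and sialic acid were even, with 8 of 39 in each direction. Lalba, alpha-lactalbumin, which turns galactosyltransferase to lactose synthesis, was near the floor of the scale in basal cells, with 3.51 and 10.4, against 357 and 448 in luminal cells (−3.48 ± 0.32). Galnt15, which starts mucin-type chains, was lower (−3.83), and B4galt6, which makes lactosylceramide, was higher (3.37 ± 0.25).

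**Figure D5:**
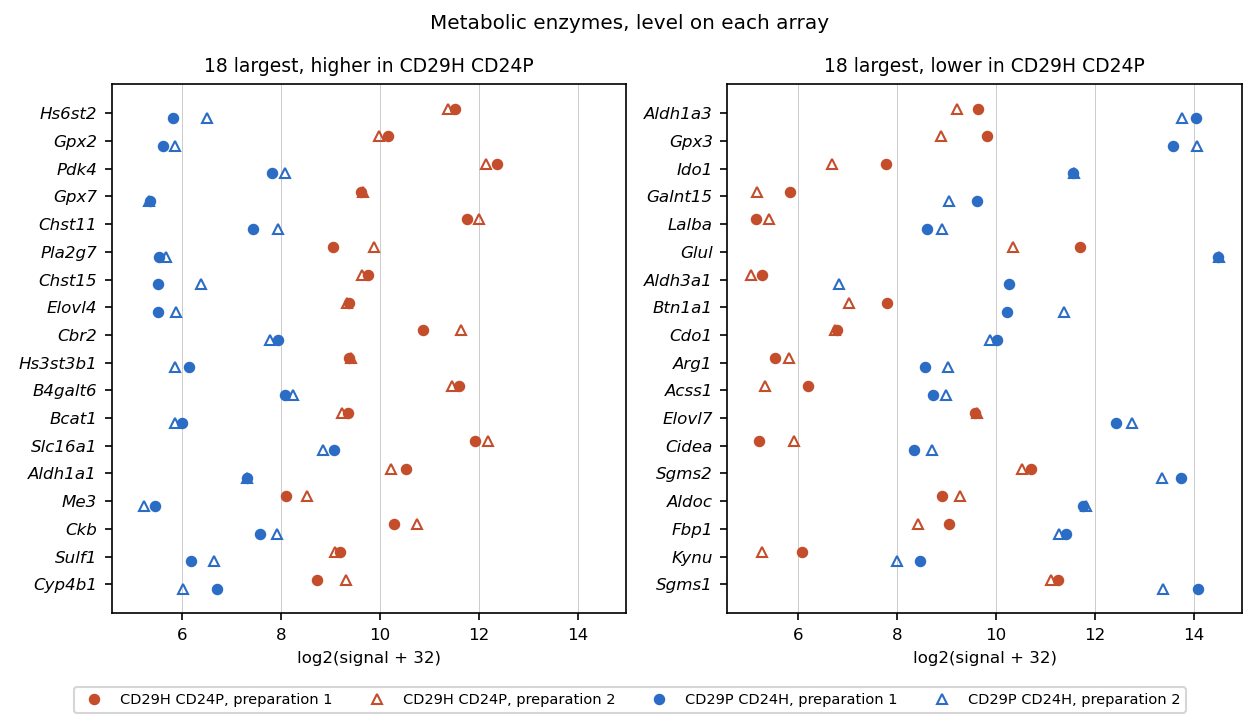
Levels of the 18 metabolic enzymes with the largest differences in each direction, in log2(signal + 32) on the horizontal axis, with 1 point per array: orange for CD29H CD24P cells, blue for CD29P CD24H cells, filled circles for preparation 1 and open triangles for preparation 2. Left panel, higher in CD29H CD24P cells, from Hs6st2 (5.28) down; right panel, lower in them, from Aldh1a3 (−4.48) down. Aldh3a1 has the widest gap between luminal arrays.

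Of the alternatives run, a fit over all 17 sorted-cell arrays, which adds the spread of the 12 tumor arrays, gave the fewest calls. It called 855 genes, and 846 of them were among the 3229. Krt5 itself had an adjusted p of 0.0514 there. The other genes named above that did not pass in that fit were Krt8, Cd24a, Snai2, Id4, Trp63, Ptprc, C1qb, Csf1r, S100a8 and Tesc; the carriers and pumps Slc45a3, Slc5a1, Slc5a3, Slc28a3, Slc12a2, Slc39a10, Atp1b1 and Gjb2; the receptors and ligands Egfr, Wnt7b, Lgr6, Slit2, Sema7a, Ntn1, S1pr2, Pgr and Esrrg; the factors Elk3, Tead2, Mef2c, Tfcp2l1 and Klf3; and the enzymes Aldoc, Pfkfb3, Fbp1, Pgd, Elovl4, Btn1a1, Cth and Aldh1a1. With the mean of a gene's probe sets in place of the brightest, Slc5a5, Egfr, Nr4a3 and Pfkfb2 did not pass. Of the 3229 genes, 962 passed in every alternative that tested them, and 1671 did so without the fit over 17 arrays. The 962 included 49 of the 132 transporters and channels, 58 of the 137 receptors and ligands, 30 of the 97 transcription factors and 56 of the 172 metabolic enzymes that were called.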

How the data were processed

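Signals were measured on 1-colour Affymetrix mouse arrays (MOE430 2.0 probe sets, by the platform annotation). Per the labels' protocols, total RNA was column-purified and underwent T7 amplification over repeated cycles, which shortens transcripts towards the 3′ end. The deposited values are linear probe-set intensity values, for which the submitters' processing notes name GCOS. Each of the 18 arrays had a mean of 500 after trimming 2% from each end. The use made of the reference RNA that the design text names is not stated in the labels. No detection calls were used, so dim genes cannot be separated from genes that are off. The number of arrays limits the precision.

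Of 45101 probe sets, 64 were controls, 34945 had 1 gene symbol, 932 had several and 9160 had none; only those with 1 symbol were named or used. For 18193 genes, the probe set brightest on average across the 4 arrays was taken; dropping the dimmest 40% left 10916. Intensities were taken as log2(intensity + 32), which understates the change of dim genes. Populations were compared with limma 3.58.1 in R 4.3.3 (eBayes with an intensity trend, 2 against 2 arrays, no block) with Benjamini-Hochberg adjustment at 0.05. Levels of different probe sets were not compared with each other. On simulated data with 10916 genes, 50 of them changed at each size, the test recovered 50% of changes of log2 size 1. It recovered 100% of sizes 2, 3 and 4, with 10 false calls. Far fewer genes were changed there than were called in the data, so the 10 give no error rate for the calls. Python 3.11.15 with matplotlib 3.10.9 made the figures.

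The members, the gene lists and the alternatives were chosen with earlier results of these data known. The rule for named genes took the sort markers, Krt5, Krt8, the cell type markers, the 15 largest differences in each direction with the same sign in both preparations, and up to 6 genes per list and direction; not all are printed, and genes named outside it are said to be. From the lists, 7 symbols that a name pattern had caught by mistake were removed after values were seen. Gene positions and promoters are those of RefSeq on GRCm38.p6. Deviations from the population means of the arrays that share a preparation number correlated at 0.0552 across genes. The number was not used as a block in the main fit, and whether it pairs the arrays was not settled. The closest pair of arrays correlated at 0.982, and none was taken as a duplicate. Alternatives were other offsets, normalizations, filters and probe-set summaries, no trend, the block, fits on 5 or 17 arrays, and leaving out each array.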

Additional observations from a re-analysis of the deposited data

How the results depend on the processing

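The count of 3229 genes stayed within 1.5 times of its value with the offset changed to 1 or made 4 times as large, after quantile normalization or a shift of medians, without the filter, without the trend, with the mean of the probe sets and a fit on the 5 normal arrays (2798 to 3334). It was 2102 of 7278 with 60% of genes left out, which tests fewer genes, and 4937 of 20967 with each probe set by itself, which tests more. With the preparation number as a replicate block 3515 genes passed, 3208 of them among the 3229. The labels tie the samples by a number only. The actin 3′/5′ ratio was higher in preparation 1 of both populations, at 7.09 against 3.08 in basal cells and 24.7 against 6.33 in luminal cells. Whether the preparations pair the arrays was therefore not settled. Leaving out 1 array gave 2001 to 4964 genes, with 2001 without basal array 2 and 4964 without luminal array 2. The lone array was then assumed to vary like the others. The fit over 17 arrays called 855 genes, of which 56.0% were higher in basal cells, against 49.0% of the 3229; 2032 genes had an unadjusted p under 0.05 there. The actin 3′/5′ ratio was 14.4 to 99.3 on the tumor arrays, and its part in this was not tested.

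Direction turned for few named genes. Leaving out 1 array each, Chka ranged from −0.043 (without basal array 2) to 1.05, Col1a2 from −0.84 (without luminal array 1) to 1.84 and Col3a1 from −1.20 (without luminal array 1) to 1.74, against 0.88, 0.50 and 0.27 with all 4 arrays. With the mean of the probe sets Idh2 was −0.36, Laptm5 0.29 and Mbp 0.0034, against 0.74, −1.55 and −2.16. For Idh2, Laptm5 and Mbp another probe set was called the other way; the cause was not tested. Depth of signal limits what can be said of dim genes, since detection calls were not used.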
